A study of Mus musculus with 6 samples.

Results

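The genes described here are those for the protein components of the cytosolic ribosome, taken as every row whose symbol has the form Rpl or Rps followed by a number, with an optional a, x or l, together with Rplp0, Rplp1, Rplp2 and Rpsa. The rule used names only and no measured value, but it and the related gene lists were chosen with earlier results of these data known. The rule gave 82 of the 24594 rows of the count table. Of these, 50 belong to the large subunit and 32 to the small subunit, and they lie on 19 chromosomes. The canonical components make up 76, and the other 6 are paralogs, which are related genes outside the standard set (Rpl3l, Rpl10l, Rpl32l, Rpl39l, Rps4l and Rps27l).

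The data are RNA-seq counts from organoids of mouse small intestine, which are epithelial cultures with crypt-like and villus-like regions. Cells were plated singly and grown for 96 h, then received 5 uM NIBR-LTSi or the matching amount of the solvent DMSO for 24 h, with 3 libraries per group. The compound targets LATS1 and LATS2, the kinases of the Hippo pathway. Whether replicates were separate cultures is not in the labels, so each p-value reflects the spread between these libraries only, which may be technical.

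Ribosomal proteins are made in matched amounts and assemble with ribosomal RNA in the nucleolus into the large and small subunits. Their mRNAs are among the most abundant of dividing cells, and most start with a C followed by a run of pyrimidines, the terminal oligopyrimidine (TOP) tract. Through this tract the kinase complex mTORC1 and the RNA-binding protein LARP1 control their translation and stability, so the protein output of these genes can change while the mRNA level does not.

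Start-site sequences were found in the RefSeq promoter table for 61 of the 82 genes (assembly GRCm38.p6). A tract, searched on the sense strand as a C within 5 bases of an annotated start followed by at least 4 bases each C or T, was present in 29 of the 61 (47.5%), against 21.2% of the 27025 genes in the table and 23.8% of the 10052 genes in it that were tested for expression here. The letters CGGAAG or CTTCCG, the same core site of ETS factors on either strand, were present within 250 bases before to 50 bases after the start in 41 of the 61 (67.2%), against 18.8% of all genes in the table and 34.8% of the tested ones. The letters TATAAA or their reverse complement occurred in 2 (3.28%), against 8.94% of all genes and 4.90% of the tested ones. The windows below cover 15 bases on either side of the start for genes that appear in the results, with the tract in capitals where the search found one, and all are printed 5′ to 3′ on the strand of the gene.
Rpl12 (chr2:32961697-32961726, plus strand): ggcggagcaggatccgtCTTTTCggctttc
Rps6 (chr4:86857353-86857382, minus strand): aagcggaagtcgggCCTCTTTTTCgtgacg
Rpl15 (chr14:18270972-18271001, minus strand): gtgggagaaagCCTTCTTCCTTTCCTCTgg
Rpl38 (chr11:114668565-114668594, plus strand): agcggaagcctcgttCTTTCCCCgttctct
Rpsa (chr9:120127751-120127780, plus strand): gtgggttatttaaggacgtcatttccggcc
Rpl4 (chr9:64173372-64173401, plus strand): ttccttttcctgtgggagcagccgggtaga
Rpl12, Rps6, Rpl15 and Rpl38 carry the tract at or next to the start. For Rpsa and Rpl4 no such tract began within 5 bases of the start, and pyrimidine runs farther away, as at the left end of the Rpl4 window, were not counted.

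Total counts per library ranged from 18395427 to 26767043. The epithelial markers Epcam, Cdh1, Krt8, Krt20, Vil1 and Cdx2 were all expressed, with 6508 to 6965 summed CPM in NIBR-LTSi libraries and 6143 to 6214 in DMSO libraries (CPM here is counts scaled to a common library total with TMM factors). Fibroblast and muscle markers summed to at most 0.103 CPM with NIBR-LTSi and at most 0.236 CPM with DMSO, and Dcn was at 0 throughout. Immune markers summed to 3.2 to 5.12 CPM with NIBR-LTSi and 3.72 to 4.49 CPM with DMSO, with Cd3e at 0, and endothelial markers to 0.219 to 0.491 CPM with NIBR-LTSi and 0.601 to 0.614 CPM with DMSO, with Cdh5, Kdr and Emcn at 0.

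The ribosomal protein genes as a group stayed close to their DMSO level after 24 h of NIBR-LTSi. Together they took 2.73%, 2.70% and 2.51% of all counts in the NIBR-LTSi libraries and 2.51%, 2.60% and 2.39% in the DMSO libraries, so the groups overlapped. The mean share was 2.65% ± 0.122 with NIBR-LTSi and 2.5% ± 0.108 with DMSO (SD, n = 3 each). The median gene differed by 0.04 on the log2 scale (1.03-fold), beside a median of 0.02 for all 12592 genes that passed the filter on low counts. No p is given for these sums and medians, which are descriptions.

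**Figure D1:**
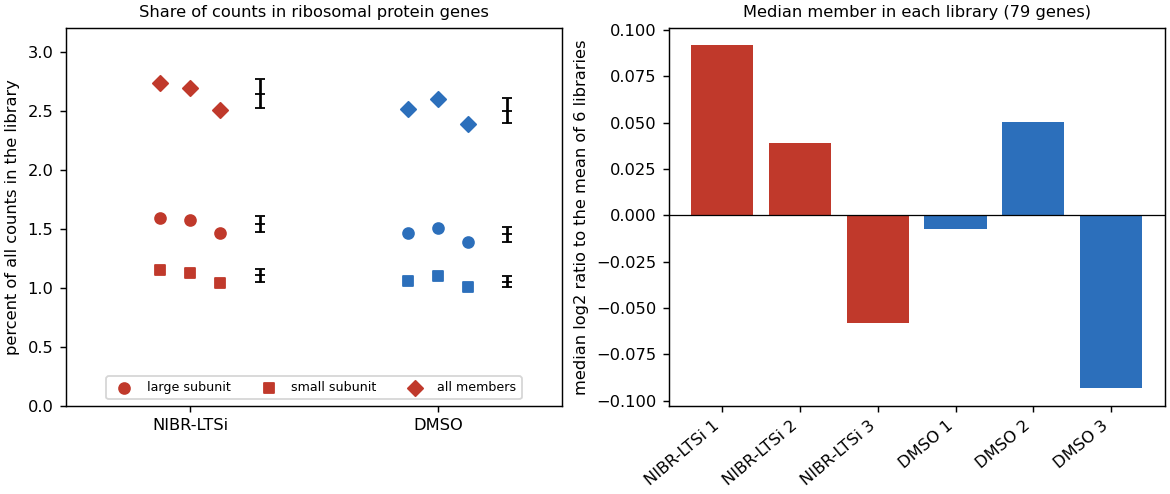
Left, percent of all counts in the ribosomal protein genes (diamonds), large subunit genes (circles) and small subunit genes (squares) in each library, with the mean and SD of each group beside the points. Right, median log2 ratio of the 79 genes that passed the filter to their own mean over 6 libraries. The third library of each group is the lowest of its group in both panels, and the groups overlap.

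Of the 82 genes, 79 passed the filter. With NIBR-LTSi 6 of them rose and none fell (edgeR quasi-likelihood test, adjusted p under 0.05 over all 12592 genes). That is 7.59% called, beside 42% of all tested genes called in either direction, 22.8% higher and 19.2% lower. Those that rose were Rps4l, Rpl17, Rps2, Rpl3, Rpl12 and Rpsa, by 1.1-fold to 1.25-fold. At an unadjusted p under 0.05, 10 of the 79 were higher and 2 lower (26.7% and 22.9% of all tested genes were), and DESeq2 called 2 higher and 1 lower (beside 15.5% and 15.9% of all genes).

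The spread of the fold changes was narrow. They ran from -0.13 for Rpl38 to 0.39 for Rps23 on the log2 scale, with an SD of 0.0895 across the 79 genes and of 0.474 across all tested genes. The difference was above 0 for 61 genes and below 0 for 18, and it lay within 0.1 of 0 for 63 (beside 3626 of all 12592 tested genes). The 95% interval of the difference stayed inside a 1.2-fold change in either direction for 67 of the 79 (84.8%), and for 28.7% of all tested genes. It stayed inside a 1.5-fold change for 77, the exceptions being Rps23 and Rps29, which were named after their values were seen. Of the 8379 tested genes whose mean CPM reached that of the lowest tested ribosomal protein gene, 48.5% were called. Their fold changes had an SD of 0.336, and 2869 of them lay within 0.1 of 0.

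**Figure D2:**
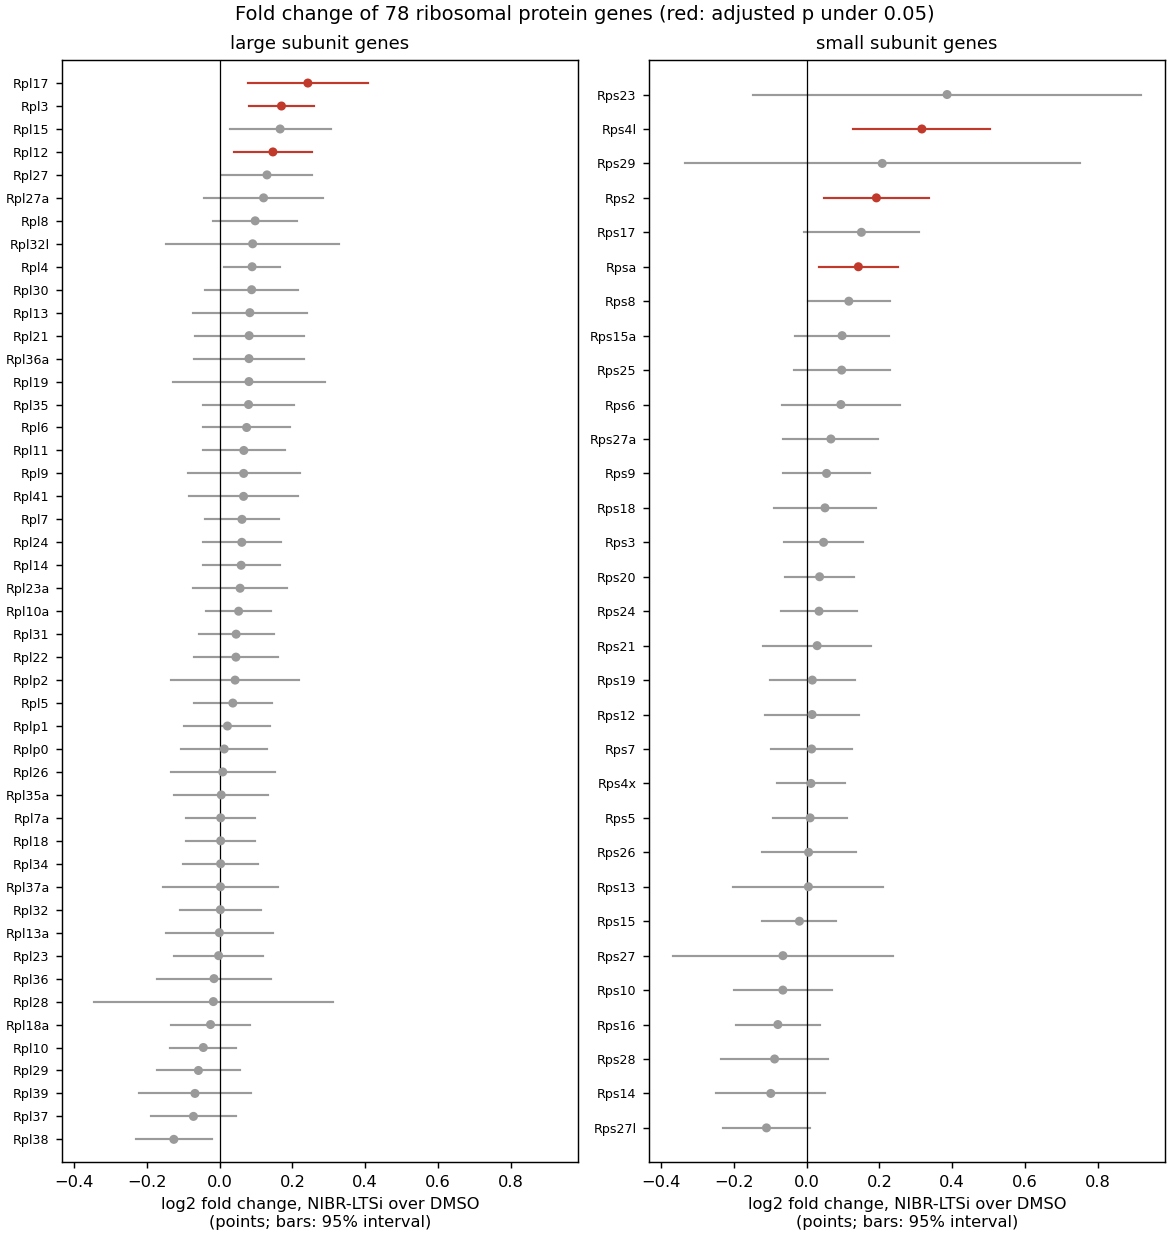
Log2 fold change of NIBR-LTSi over DMSO for 78 of the 79 tested genes (points) with its 95% interval from the edgeR fit (bars), large subunit genes on the left and small subunit genes on the right. The 6 genes with an adjusted p under 0.05 are red, and all 6 lie above 0.

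Each subunit held 3 of the 6 genes that rose. Among 47 tested large subunit genes 3 rose, with a median log2 difference of 0.05, and among 32 small subunit genes 3 rose, with a median of 0.03. Large subunit genes took 1.54% ± 0.0675 of counts with NIBR-LTSi and 1.45% ± 0.0620 with DMSO, and small subunit genes took 1.1% ± 0.0549 with NIBR-LTSi and 1.05% ± 0.0456 with DMSO (SD, n = 3 each). The ratio of the large to the small subunit share was 1.39, 1.40 and 1.41 in NIBR-LTSi libraries and 1.38, 1.38 and 1.38 in DMSO libraries. The lowest NIBR-LTSi ratio lay just above the highest DMSO ratio.

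Among the large subunit genes that rose, Rpl3 encodes a core protein that reaches toward the peptidyl transferase centre. It had 316, 308 and 295 CPM with NIBR-LTSi and 280, 275 and 262 CPM with DMSO. The groups did not overlap, and the log2 difference was 0.17 ± 0.04 (SE, adjusted p = 0.0055). Rpl17, whose protein lines the exit of the nascent chain tunnel, had 20.8, 20.3 and 19.0 CPM with NIBR-LTSi and 18.0, 17.2 and 15.5 CPM with DMSO. The groups did not overlap here either, and the difference was 0.24 ± 0.08 (adjusted p = 0.022). Rpl12, a protein of the base of the stalk that contacts translation factors, had 278, 268 and 247 CPM with NIBR-LTSi and 235, 251 and 231 CPM with DMSO. The lowest NIBR-LTSi library lay below the highest DMSO library, with a difference of 0.15 ± 0.05 (adjusted p = 0.031). The Rpl12 gene overlaps the coding gene Lrsam1 on the opposite strand, and the strand setting of the counting is not given in the sources used here. With 1 library left out, Rpl17 kept its call in 3 of 6 fits (0.18 to 0.29) and lost it without the first or the second NIBR-LTSi or the third DMSO library, and Rpl12 kept it in 2 of 6 (0.10 to 0.18), without the third NIBR-LTSi or the second DMSO library. Both calls were also lost in DESeq2, and that of Rpl12 with DESeq2 size factors.

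Among the small subunit genes that rose, Rps2 encodes a protein near the mRNA entry channel. It had 464, 423 and 383 CPM with NIBR-LTSi and 364, 384 and 363 CPM with DMSO. The lowest NIBR-LTSi value lay just under the highest DMSO value, and the difference was 0.19 ± 0.06 (adjusted p = 0.039). Rpsa, also known as the laminin receptor precursor, had 657, 621 and 584 CPM with NIBR-LTSi and 532, 586 and 570 CPM with DMSO. Again 1 pair of libraries overlapped, with a difference of 0.14 ± 0.05 (adjusted p = 0.036). Rps2 overlaps the antisense gene Snhg9. With 1 library left out, Rps2 kept its call in 1 of 6 fits (0.11 to 0.25), without the third NIBR-LTSi library, and Rpsa in 2 of 6 (0.09 to 0.18), without the third NIBR-LTSi or the second DMSO library. Both calls were also lost with DESeq2 size factors, and that of Rpsa in DESeq2 as well.

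These calls were small and not all held when 1 library was left out. Of the 14 alternatives to the reported fit, Rpl3 kept its call in 13 and lost it without the second NIBR-LTSi library. Without that library no gene of the 79 rose and 1 fell, beside 17.3% and 16.2% of all genes. Without the first NIBR-LTSi library 2 rose and 1 fell (beside 20.1% and 18.1%), and without the third 12 rose and none fell (beside 18.3% and 16.8%). Without the third DMSO library 2 rose and 2 fell (beside 21.6% and 18.2%). Without the first DMSO library 4 rose and without the second 5 rose (beside 17.9% and 20.3% higher), and none fell in either. An adjustment for gene width raised the count to 24 higher and none lower (beside 21.8% and 23% of all genes), DESeq2 size factors gave 3 higher and 2 lower (beside 21% and 20.8%), and library totals alone gave 12 higher and none lower (beside 27.2% and 15.3%). The median of the 79 ran from 0.0033 to 0.089 on the log2 scale over the 14 alternatives. It lay below the median of all tested genes without the first NIBR-LTSi library (0.0033 against 0.019) and without the third DMSO library (0.0041 against 0.022), and above it in the other 12.

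**Figure D3:**
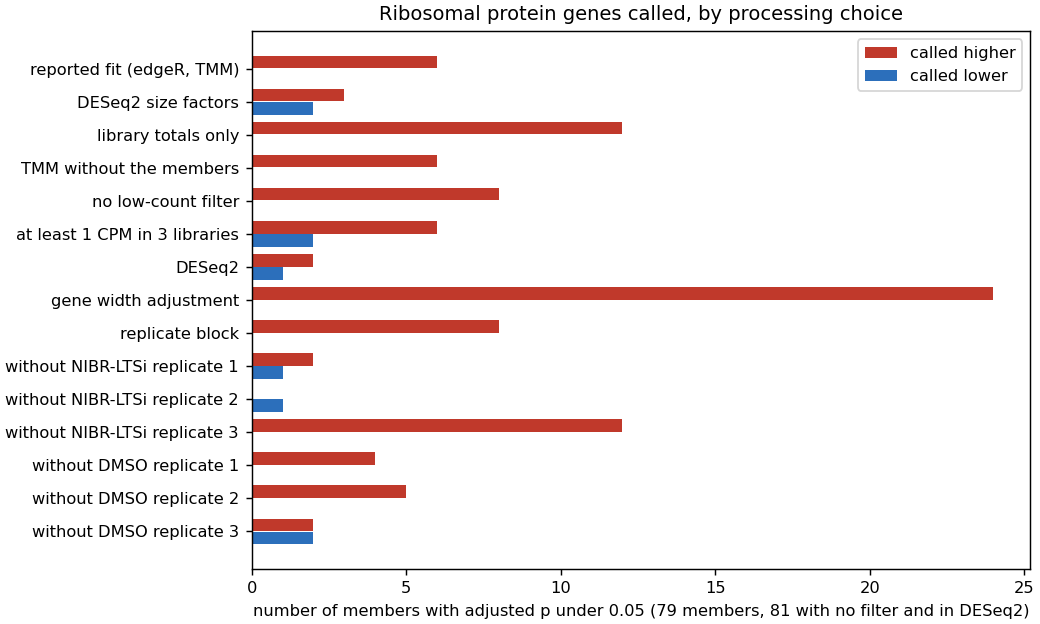
Number of ribosomal protein genes called higher (red) and lower (blue) with NIBR-LTSi in the reported fit and in each of the 14 alternatives. The count of higher calls runs from 0 without the second NIBR-LTSi library to 24 with the gene width adjustment, and the count of lower calls never exceeds 2.

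In most libraries the genes moved together, within groups as well as between them. In the third NIBR-LTSi library the median gene lay 0.08 below the mean of its own group on the log2 scale, with 3 of 79 above it, and in the third DMSO library it lay 0.08 below, with 5 of 79 above. In the first NIBR-LTSi library 70 of 79 lay above the group mean, in the second 66 of 79, and in the second DMSO library 73 of 79. Deviations from the mean of a group sum to 0 for each gene, so these counts are not independent within a group. The first DMSO library was mixed, with 42 of 79 above its group mean. The median over all tested genes stayed within 0.01 of the group mean in each library, but TMM scaling itself keeps that median near 0. It therefore does not show whether other sets of genes moved in the same way. Replicates of a typical ribosomal protein gene had a coefficient of variation of 5.88% with NIBR-LTSi and 6.23% with DMSO.

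**Figure D4:**
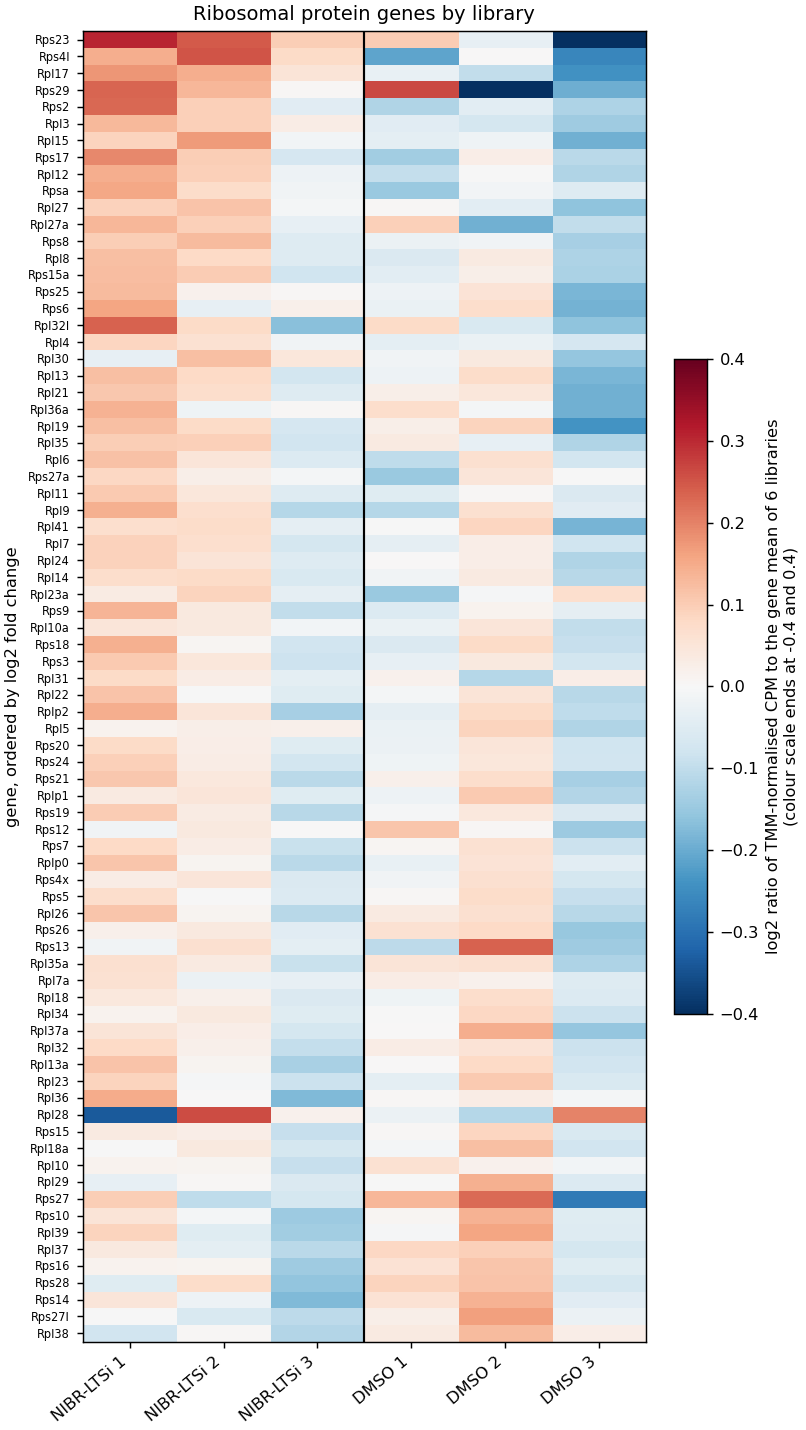
Log2 ratio of TMM-normalised CPM to the mean of the gene over 6 libraries, for 78 of the 79 tested genes in order of fold change (rows, highest at the top) and the 6 libraries (columns, NIBR-LTSi left of the line). The colour scale ends at -0.4 and 0.4. Most genes share a sign within most libraries, such as red in the first NIBR-LTSi library and blue in the third DMSO library. The first DMSO library is mixed, with 34 of all 79 tested genes above their mean of 6 libraries.

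Several lists of proliferation and cell type markers are set beside this, where 22.8% of all tested genes rose and 19.2% fell. Summed proliferation markers (Mki67, Top2a, Ccna2, Ccnb1, Mcm5, Mcm6, Pcna and Cdk1) reached 711 to 791 CPM with NIBR-LTSi and 451 to 484 CPM with DMSO, and 7 of the 8 rose. Summed enterocyte markers had 29395 to 31874 CPM with NIBR-LTSi and 35010 to 36011 CPM with DMSO, and of the 6 enterocyte genes 2 rose and 3 fell. Of 3 tested crypt stem cell markers Olfm4 fell to 0.511-fold and Lgr5 to 0.618-fold while Smoc2 rose. Of 4 goblet cell markers Clca1 rose 3.39-fold and the other 3 were not called, with a list median log2 difference of -0.12. Of 4 Paneth cell markers 2 rose, among them Mmp7 (1.60-fold), and 2 fell, among them Lyz1 (0.674-fold). Of 4 enteroendocrine markers 1 rose (Gcg, 1.54-fold) and 2 fell, among them Chgb (0.705-fold). Of 4 tuft cell markers none was called (3.46 to 4.87 summed CPM with NIBR-LTSi and 3.97 to 4.49 with DMSO). Of the 6 epithelial markers Krt8 rose 1.38-fold and Vil1 fell to 0.763-fold. Ribosomal protein genes are narrow, with a median width in the deposited table of 1739 bases against 4135 for all tested genes. The 1486 other tested genes no wider than 1739 bases had a median log2 difference of -0.05. Of these, 212 were higher and 346 lower (37.6% called, beside 42% of all tested genes). With an adjustment for gene width, the median of the 79 ribosomal protein genes was 0.087, against 0.04 in the reported fit. That adjustment gave 24 higher and none lower (beside 21.8% and 23% of all genes). The cause of that shift and the part of the marker lists in the result were not tested. In bulk libraries a change in cell numbers and a change in RNA per cell cannot be told apart.

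Of the 79 genes, 5 had every NIBR-LTSi library above every DMSO library and 2 had every one below, beside 28% and 24.5% of all tested genes. The first set holds Rpl3, Rpl17, Rps4l, Rpl15 and Rpl4, and the second includes Rpl38. Rpl38 is known from mouse mutants with skeletal patterning defects, in which its loss affects the translation of Hox mRNAs. It had 95.9, 102 and 93.2 CPM with NIBR-LTSi and 104, 111 and 103 CPM with DMSO, a difference of -0.13 ± 0.05 (adjusted p = 0.054). Rpl38 did not pass the threshold in the reported fit. It was called lower in 4 of the 14 alternatives, namely with DESeq2 size factors, with genes under 1 CPM removed, and without the second NIBR-LTSi or the third DMSO library.

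The stalk proteins, which recruit elongation factors, are encoded by Rplp0, Rplp1 and Rplp2, and none was called. Rplp0, often used as a reference gene in quantitative PCR, had 1561, 1457 and 1340 CPM with NIBR-LTSi and 1417, 1500 and 1404 CPM with DMSO. The groups overlapped fully, with a log2 difference of 0.01 ± 0.05 (adjusted p = 0.88). Rplp1 differed by 0.02 ± 0.05 and Rplp2 by 0.04 ± 0.08, and the 95% interval of Rplp0 ran from 0.930-fold to 1.09-fold.

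The proteins Rpl5 and Rpl11 join the small ribosomal RNA of the large subunit and, when unassembled, bind the p53 inhibitor MDM2. Rpl5 had 256, 258 and 257 CPM with NIBR-LTSi and 249, 270 and 234 CPM with DMSO (difference 0.04 ± 0.05, adjusted p = 0.59). Rpl11 had 63.5, 60.9 and 57.0 CPM with NIBR-LTSi and 57.2, 59.3 and 56.8 CPM with DMSO (0.07 ± 0.05, adjusted p = 0.34). Both sets of libraries overlapped, and neither gene was called.

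Rps6, the classical substrate of the S6 kinases downstream of mTORC1, had 177, 155 and 161 CPM with NIBR-LTSi and 156, 167 and 139 CPM with DMSO. The log2 difference was 0.09 ± 0.07 (adjusted p = 0.33), with overlapping libraries. Rps19, the gene most often mutated in Diamond-Blackfan anaemia in humans, differed by 0.02 ± 0.05. Rpl10, which joins the large subunit late, differed by -0.05 ± 0.04 and Rpl22 by 0.04 ± 0.05, and none of the 4 was called.

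The largest point estimate of the 79, that of Rps23, had a wide interval. Its counts came to 22.6, 21.7 and 19.6 CPM with NIBR-LTSi and 19.6, 17.9 and 11.1 CPM with DMSO, the third DMSO library lying far below the others. The difference was 0.39 ± 0.21 (adjusted p = 0.21), and the 95% interval ran from 0.903-fold to 1.89-fold. Rps29 varied most after it, with 81.7, 76.3 and 69.7 CPM with NIBR-LTSi and 83.5, 51.3 and 60.8 CPM with DMSO (0.21 ± 0.20, adjusted p = 0.48). Without the first DMSO library Rps29 was called higher, at 0.43.

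Of the 6 paralogs, 3 had counts above the filter. Whether reads of a partner are among these counts is unknown, because the treatment of reads mapping to several places was not given. Rps4l rose, with 17.6, 18.9 and 16.8 CPM with NIBR-LTSi and 13.7, 15.9 and 13.3 CPM with DMSO. The groups did not overlap, and the difference was 0.32 ± 0.09 (adjusted p = 0.011), lost in DESeq2 and without the second NIBR-LTSi or the first DMSO library. Its canonical partner Rps4x had 624, 632 and 587 CPM with NIBR-LTSi and 606, 640 and 583 CPM with DMSO (0.01 ± 0.04, adjusted p = 0.85). Rps27l, a p53 target in human cells, had 87, 83.5 and 81 CPM with NIBR-LTSi and 88.5, 97.5 and 85.6 CPM with DMSO (-0.11 ± 0.05, adjusted p = 0.13). Rpl32l differed by 0.09 ± 0.11 and was not called. Rpl3l, known from skeletal and heart muscle, had no count in any library, while Rpl10l and Rpl39l, both known from testis, had 10 and 16 counts over all 6.

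The level of each paralog relative to its partner was then compared per kb of gene width, over 6 pairs that include 3 paralogs outside the naming rule, a comparison chosen after the data were seen. The ratio of Rps4l to Rps4x was 0.04999 ± 0.0016 with NIBR-LTSi and 0.0406 ± 0.00221 with DMSO (SD, n = 3 each). The ratio of Rpl22l1 to Rpl22 was 0.834 ± 0.0329 with NIBR-LTSi and 0.740 ± 0.0350 with DMSO, and that of Rpl36al to Rpl36a was 1.57 ± 0.104 with NIBR-LTSi and 1.84 ± 0.109 with DMSO. In each of these 3 pairs no NIBR-LTSi library overlapped a DMSO library, which gives an exact permutation p of 0.1 (two-sided, n = 3 each), the smallest this design allows, and 0.2 after adjustment over the 6 pairs. For Rps27l, Rpl32l and Rpl7l1 the libraries overlapped.

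Levels of the 76 canonical genes differed widely per kb of width although the proteins occur once per ribosome with few exceptions. The mean over 6 libraries ran from 6.50 CPM per kb for Rpl28 to 1467 for Rplp1, a 226-fold range with a median of 113. After Rplp1 the highest were Rps15, with 963 ± 46.8 CPM per kb with NIBR-LTSi and 976 ± 50.4 with DMSO, and Rpl4, at 982 ± 34.4 with NIBR-LTSi and 923 ± 14.1 with DMSO (SD, n = 3 each). At the low end, Rpl28 had 6.45 ± 1.31 CPM per kb with NIBR-LTSi and 6.56 ± 0.748 with DMSO, and Rps13 had 9.90 ± 0.374 with NIBR-LTSi and 9.92 ± 1.48 with DMSO. Rpl17 was next, at 15.1 ± 0.685 with NIBR-LTSi and 12.7 ± 0.951 with DMSO. The range and the ranking also depend on the deposited gene width, which ran from 383 to 6270 bases over the 79 tested genes. Whether that width matches the length of the mRNA was not checked.

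Such levels are uncertain, because ribosomal protein genes are known for near-identical copies elsewhere in the genome, among which reads may be divided. The deposited table holds 26 rows described as ribosomal protein pseudogenes or retrotransposed copies. Of the 17 tested, 1 was higher (Gm15421) and none was lower, beside 22.8% and 19.2% of all tested genes. Rps27 had 597, 656 and 750 counts with NIBR-LTSi and 788, 606 and 501 with DMSO, and its copy Rps27rt had 583, 649 and 723 counts with NIBR-LTSi and 766, 579 and 481 with DMSO. The pair thus carried almost the same number in each library. So did Rpl26 and the copy row Gm15772, named after their values were seen. Rpl26 had 5354, 6300 and 6472 counts with NIBR-LTSi and 6551, 4807 and 5008 with DMSO. Gm15772 had 5360, 6296 and 6465 with NIBR-LTSi and 6543, 4805 and 5008 with DMSO.

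Start-site sequence and hosted small RNAs were set beside the response. Tested genes with a tract at the start had a median log2 difference of 0.04 and 2 of 29 rose. Tested genes whose start lacked one had a median of 0.04 and 1 of 29 rose, beside 22.8% of all tested genes. Rpl3, Rpl17 and Rps4l, which also rose, had no start-site sequence and are in neither group. In the GENCODE vM21 annotation of GRCm38, 29 of the genes hold a small nucleolar RNA within their bounds. Of these hosts 5 of 29 rose, against 0 of 48 tested genes that host none, and both shares lie below the 22.8% of all tested genes. The hosts that rose are all of those that rose except Rps4l, which was not matched to the annotation. Each of their calls was lost in at least 1 fit with 1 library left out. The medians of hosts and of other genes were 0.04 and 0.04. No test was made of the split by hosted RNA, which was not among the planned comparisons.

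The other cytosolic ribosomal proteins, whose symbols the rule does not cover, moved both ways. Of 7 tested genes 1 rose and 2 fell, a share called of 3 in 7 that is close to the 42% of all tested genes. Rpl22l1, the paralog of Rpl22, had 81.4, 75.5 and 68.0 CPM with NIBR-LTSi and 62.1, 67.5 and 63.5 CPM with DMSO (difference 0.22 ± 0.06, adjusted p = 0.018). Fau, which encodes a ubiquitin-like protein fused to a small subunit protein, had 549, 515 and 487 CPM with NIBR-LTSi and 604, 611 and 549 CPM with DMSO (-0.19 ± 0.05, adjusted p = 0.015). The NIBR-LTSi libraries lay on 1 side of the DMSO libraries in both genes. Rpl36al fell as well (-0.15 ± 0.06, adjusted p = 0.0496). The calls of Rpl22l1, Fau and Rpl36al were each lost in 4 of the 6 fits with 1 library left out, where the differences ran from 0.15 to 0.28, from -0.24 to -0.15 and from -0.19 to -0.10. Rpl22l1 kept its call without the third NIBR-LTSi or the second DMSO library, Fau without the first NIBR-LTSi or the third DMSO library, and Rpl36al likewise without either of these.

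Most dedicated helpers of ribosomal proteins rose with NIBR-LTSi. Of 9 dedicated chaperones and loading factors 7 rose, beside 22.8% of all tested genes, and none fell (2 not called; at an unadjusted p under 0.05, 1 was lower; DESeq2 called 5 higher and none lower), with a median log2 difference of 0.28. Rrs1, which helps load Rpl5 and Rpl11 in yeast and human cells, had 20.4, 21.2 and 19.96 CPM with NIBR-LTSi and 14.0, 13.2 and 13.7 CPM with DMSO (0.59 ± 0.07, adjusted p = 2.9e-05). Tsr2, the escort of Rps26, had 9.09, 10.1 and 7.97 CPM with NIBR-LTSi and 6.69, 6.11 and 6.05 CPM with DMSO (0.52 ± 0.11, adjusted p = 0.0031). Heatr3, which carries Rpl5 in human cells, rose 1.38-fold and Bccip, a chaperone of Rpl23 in human cells, 1.21-fold. Their libraries did not overlap between groups.

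**Figure D5:**
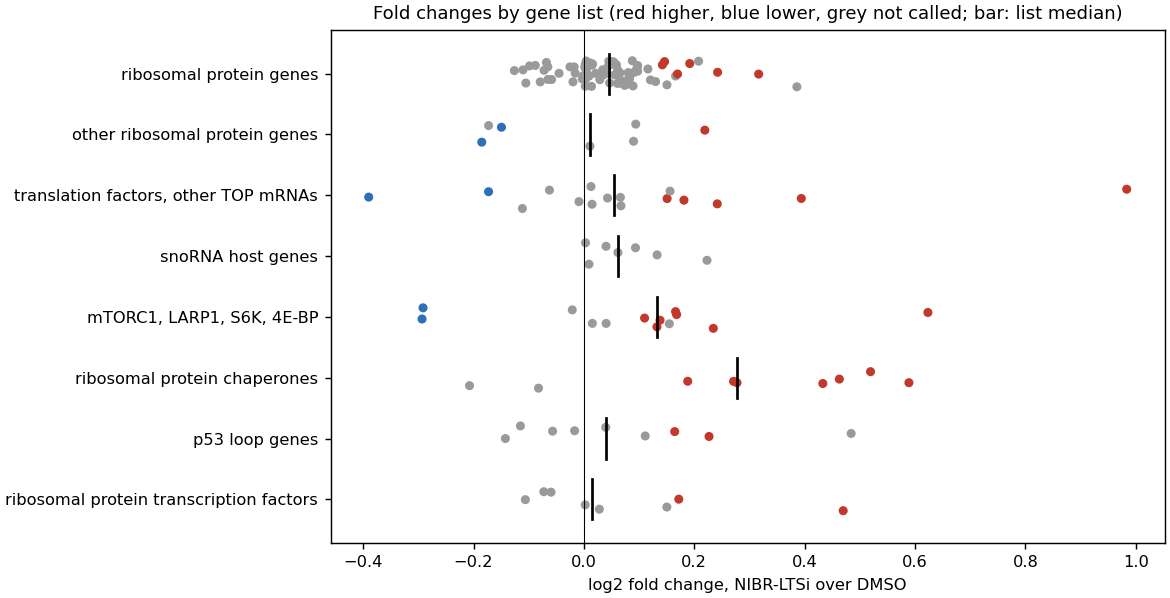
Log2 fold change of NIBR-LTSi over DMSO for each tested gene (points) of the ribosomal protein genes and of 7 related lists, with genes called higher in red, lower in blue and not called in grey; the bar is the list median. The 79 ribosomal protein genes lie between -0.13 and 0.39, and 7 of the 9 chaperones are red.

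Of 13 genes of mTORC1 signalling and its translational targets 7 rose and 2 fell, with a median of 0.13 (beside 22.8% higher and 19.2% lower of all tested genes). Eif4ebp1, the inhibitor of the cap-binding protein eIF4E, had 54.2, 55.1 and 53.9 CPM with NIBR-LTSi and 34.4, 40.3 and 31.6 CPM with DMSO (0.62 ± 0.08, adjusted p = 5.2e-05). Pdcd4, an inhibitor of the helicase eIF4A that S6 kinase marks for degradation, had 148, 151 and 150 CPM with NIBR-LTSi and 179, 187 and 185 CPM with DMSO (-0.29 ± 0.04, adjusted p = 6.9e-05). Neither pair of groups overlapped. Rheb, the activator of mTORC1, rose 1.18-fold and Larp1, which binds TOP mRNAs, 1.12-fold. DESeq2 called 3 of the 13 higher, and Larp1 lost its call without the second NIBR-LTSi or the first DMSO library (log2 differences of 0.14 to 0.22 with 1 library left out).

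Of 16 translation factors and other known TOP mRNAs 5 rose and 2 fell, with a median of 0.05, beside the same shares of all genes. Nap1l1, a histone chaperone whose mRNA has a TOP tract, had 48.7, 52.4 and 52.2 CPM with NIBR-LTSi and 25.1, 27.4 and 25.2 CPM with DMSO (0.98 ± 0.06, adjusted p = 1.4e-07). Npm1, a nucleolar protein of ribosome export, had 398, 371 and 372 CPM with NIBR-LTSi and 286, 294 and 288 CPM with DMSO (0.39 ± 0.04, adjusted p = 7.65e-06). Neither pair of groups overlapped. Eif3a rose 1.18-fold and Eef1g 1.13-fold.

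Of 8 transcription factors linked to ribosomal protein promoters 2 rose (beside 22.8% of all tested genes, a like share) and none fell, with 1 lower at an unadjusted p under 0.05 and none lower in DESeq2. Myc had 37.8, 41.5 and 41.1 CPM with NIBR-LTSi and 30.3, 29.3 and 27.3 CPM with DMSO (0.47 ± 0.06, adjusted p = 8.4e-05), and Sp1 rose 1.13-fold, a call lost in 5 of the 6 fits with 1 library left out (0.13 to 0.24). The ETS factor Gabpa was not called (0.15 ± 0.06, adjusted p = 0.066). Of 9 genes of the p53 loop 2 rose, again a share like that of all genes, and none fell, with 1 lower at an unadjusted p under 0.05 and none lower in DESeq2. Trp53 itself rose 1.17-fold and Ccng1 1.12-fold, while Mdm2 was not called (-0.12 ± 0.05, adjusted p = 0.066). Of 7 snoRNA host genes outside the ribosomal protein genes none was called by edgeR or DESeq2, and none had an unadjusted p under 0.05.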

How the data were processed

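The authors deposited 1 table of whole-number read counts per gene for 6 libraries, with a gene width in bases. Per the submitters' processing notes the build was mm10 and edgeR was used. The aligner, counter, strand setting and treatment of reads that map to several places were not given in the sources used here. The counts were fitted in edgeR 4.0.16 (R 4.3.3, limma 3.58.1) with TMM factors, filterByExpr (12592 genes kept, 79 of the 82 members), a robust quasi-likelihood F-test, two-sided, group only, 4 residual degrees of freedom, and Benjamini-Hochberg adjustment over all tested genes at 0.05. DESeq2 1.42.0 was an alternative. The SE was calculated back from the F statistic. The coefficient of variation between replicates from the common dispersion was 6.02%. The procedure was also run on simulated counts with 200 genes changed, against 5287 genes called in the real data. No statement here rests on that run. Named genes were the paralogs and their partners, canonical members past the threshold (up to 6 in each direction), the 3 highest and lowest per kb, a role set and up to 4 genes with the smallest p per related list, and others are marked as chosen later. The members and lists were chosen with earlier results of these data known. Replicate numbers were not taken as pairs. Some of the genes so chosen are left out of the text and the per-gene figures.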

Additional observations from a re-analysis of the deposited data

How the results depend on the processing

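Of the 79 ribosomal protein genes (members), 40 to 67 lay above 0 over the 14 alternatives. Their median was below that of all genes without the first NIBR-LTSi library (0.0033 against 0.019) and without the third DMSO library (0.0041 against 0.022). Members called higher numbered 3 with DESeq2 size factors, 12 with library totals, 2 in DESeq2 and 24 with the gene width adjustment, and those called lower 2 with DESeq2 size factors, 2 with at least 1 CPM in 3 libraries and 1 in DESeq2. With 1 library left out they ranged over 0 to 12 higher and 0 to 2 lower. The other cytosolic ribosomal proteins had 3 higher with library totals and 2 with the width adjustment, and 1 lower with each of these and with TMM factors calculated without the members, and 0 to 1 higher and 0 to 3 lower with 1 library left out. Translation factors and other TOP mRNAs had 1 lower with library totals and in DESeq2 (1 to 3 with 1 library left out, and 4 to 6 higher). snoRNA hosts had 1 higher with the width adjustment. mTORC1 genes had 4 higher with DESeq2 size factors, 3 in DESeq2 and 3 with the width adjustment, and 1 lower with library totals (2 to 7 higher and 1 to 2 lower with 1 library left out). The p53 loop genes had 1 lower with DESeq2 size factors and with the width adjustment (2 to 3 higher and 0 to 1 lower with 1 library left out). The transcription factors had 1 higher with DESeq2 size factors, in DESeq2 and with the width adjustment, and 1 lower with the width adjustment (1 to 2 higher with 1 library left out). The chaperones had 7 higher in each leave-one-out fit. The cause of these shifts was not tested.

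Single members near 0 changed sign. Of 420 values for 30 members, 43 were on the other side of 0, 27 lost a call and 22 gained one. The log2 differences that changed sign were -0.016 (DESeq2 size factors), -0.00097 (1 CPM filter) and -0.015 (DESeq2) for Rpl32, 0.043 (width) for Rps27, -0.0061 (size factors) and -0.0051 (DESeq2) for Rps4x, 0.025 (totals) and 0.097 (width) for Rps15, 0.028 (totals) and 0.024 (width) for Rpl28, -0.014 (size factors) and -0.016 (DESeq2) for Rps13, -0.0052 and -0.0041 for Rplp0, -0.0021, -0.0011 and, with width, -0.012 for Rps19, and 0.0012 (width) for Rpl38. With 1 library left out the log2 difference ran from -0.0084 to 0.19 for Rpl32l, -0.044 to 0.042 for Rpl32, -0.20 to 0.028 for Rps27, -0.020 to 0.048 for Rps4x, -0.030 to 0.081 for Rplp1, -0.055 to 0.020 for Rps15, -0.18 to 0.11 for Rpl28, -0.061 to 0.13 for Rps13, -0.049 to 0.060 for Rplp0, -0.028 to 0.11 for Rplp2, -0.013 to 0.091 for Rpl5, -0.039 to 0.066 for Rps19, -0.0095 to 0.081 for Rpl22, -0.011 to 0.21 for Snhg3 and -0.012 to 0.16 for Snhg1.

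Replicate numbers were not taken as pairs, since the correlations of deviations for the same number were 0.0482, -0.296 and 0.562, of which 1 exceeded 0.1. Between libraries of unlike number they ran from -0.553 to 0.528, so the value of 0.562 was the largest. With the replicate number as a block 8 members were higher and none lower (beside 21.3% and 17.9% of all genes). Rpsa lost its call and Rps23, called in no other fit, gained one. With the same block mTORC1 genes had 1 lower and the transcription factors 1 higher.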
